A study of Mus musculus with 1 sample.

Results

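Cells of the neutrophil lineage that carried Fcnb and Elane together were picked out of 1 single-cell RNA-seq library of mouse bone marrow progenitors. Cells were chosen by the measured levels of 5 genes: a cell belonged to the group when, per 10000 of its own counts, Fcnb and Elane were each at 10 or more, Mpo was under 20 and Retnlg plus Mmp9 were under 5. The rule kept 668 of the 10528 cells that carried a single hashtag and passed the cell filter (6.34%, exact 95% interval 5.89 to 6.83). These 668 cells are called the Fcnb+ Elane+ precursors here. Bone marrow of a naive mouse and of a mouse injected with lipopolysaccharide (LPS, a bacterial cell wall component) gave cKit+Lin- progenitors, which express the stem cell factor receptor and lack lineage markers, and GMP-MoPs, and a naive mouse also gave cMoPs; GMP-MoP and cMoP are names of monocyte progenitors. Strain, age, LPS dose and time after injection are not given in the labels used here. Sorted cells had been tagged with barcoded streptavidin (5 hashtags, A961, A962, A963, A964 and A965) so that all could run in 1 library, and 100 cells each of A961, A962 and A964 and 15000 each of A963 and A965 were loaded. No label ties a hashtag to its sorted population or mouse, so the hashtags are compared by name alone, without a treatment.

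Since the hashtags had no replicates, no test was possible, and every interval below is a 95% interval that covers counting error only. The precursors had a median of 27437.5 counts and 3465 genes per cell. The median count was 22312 under A963 and 31819 under A965, and the summed counts were 5740410 and 14076131. Xist stood at 365 CPM (counts scaled to the same summed total in each group) in A963 precursors and at 9.38 CPM in A965 precursors, and 4 Y-linked genes together stood at 9.58 and 55.1 CPM. The sex of the donor and the hashtag can therefore not be told apart. No cell barcode occurred under more than 1 hashtag.

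Neutrophils pack their antimicrobial proteins into granules that are made in a fixed order. Azurophil granules, made at the promyelocyte stage, hold myeloperoxidase (Mpo) and the serine proteases neutrophil elastase (Elane), proteinase 3 (Prtn3) and cathepsin G (Ctsg). Specific granules with cathelicidin (Camp), lactoferrin (Ltf) and lipocalin 2 (Lcn2) follow at the myelocyte stage, and gelatinase (Mmp9) comes later still. The transcription factor C/EBP-epsilon (Cebpe) is required for the specific granule genes, and ficolin B (Fcnb) is a pattern recognition protein of immature neutrophils. Of the genes behind the rule and the label, Elane is at chr10:79886247-79888215, Fcnb at chr2:28076378-28084885, Cebpe at chr14:54710360-54712174, Gpx3 at chr11:54902453-54910377, Hsd11b1 at chr1:193221634-193264075 and Cd63 at chr10:128900989-128912822 (GRCm38, GENCODE M21).

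PU.1 (Spi1), the ETS factor of the myeloid lineage, binds purine-rich sites with a GGAA core. Its transcript was at 435 CPM in the precursors, against 310 CPM in Elane cells with high Mpo. Promoters were looked up for Elane, Mpo and Fcnb of the rule, the other label markers, Prtn3, Ctsg, Camp, Ltf, Ngp and Lcn2. Cebpe was not found, and Retnlg and Mmp9, which the rule also used, were not looked up. The 250 bases before RefSeq's gene start were searched for AGGAAGT on either strand (ACTTCCT on the other). The letters were chosen after the promoters had been looked at, so the match is a description. They occurred once in each of Elane, Prtn3, Mpo, Ctsg and Fcnb (5 of 5), and in 0 of 7 others: Gpx3, Hsd11b1, Cd63, Camp, Ltf, Ngp and Lcn2. Of 32851 promoters of the same length, 2525 (7.69%) held them. The C/EBP-like letters TTNNGCAA (TTGCNNAA on the other strand) overlapped the first motif in 0 of these promoters and occurred 2 times in Fcnb, 2 times in Ngp and once each in Ltf and Lcn2, and in 9.56% of all promoters. The stretches around the first match are shown because Elane, Fcnb and Mpo define the group and Prtn3 and Ctsg went with Elane within it; capitals mark the match, and each runs 5′ to 3′ on the strand of its gene (RefSeq, GRCm38.p6).
Elane, chr10:79886198-79886246, plus strand: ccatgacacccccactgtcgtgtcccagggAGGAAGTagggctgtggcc
Prtn3, chr10:79879543-79879591, plus strand: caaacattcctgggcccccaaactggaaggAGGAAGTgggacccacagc
Mpo, chr11:87793534-87793579, plus strand: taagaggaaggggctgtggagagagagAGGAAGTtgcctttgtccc
Ctsg, chr14:56102762-56102810, minus strand: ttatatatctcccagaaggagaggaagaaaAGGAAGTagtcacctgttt
Fcnb, chr2:28084963-28085011, minus strand: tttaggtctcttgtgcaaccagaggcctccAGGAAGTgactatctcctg
Counted back from RefSeq's gene start, which is not the GENCODE start given above for Elane and Fcnb, the match began at base 84 in Elane, 94 in Prtn3, 103 in Fcnb, 206 in Ctsg and 223 in Mpo. No annotated exon of GENCODE M21 overlapped any of these windows.

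The precursors were set beside 3 neighbouring groups cut with the same thresholds. The first were 1698 Mpo-high Elane cells (Elane at 10 or more, Mpo at 20 or more per 10000), of which 420 also had Fcnb at 10 or more. The second were 1554 Fcnb cells with low Elane (Fcnb at 10 or more, Elane under 10, Mpo under 20). Both groups had Retnlg plus Mmp9 under 5. The third were 416 late cells with Retnlg plus Mmp9 at 5 or more and Mpo under 20. Cells with erythroid genes (743 cells with Klf1 and carbonic anhydrases) served as a reference for counts that free RNA can give. Because all groups were cut from the same cells by Fcnb, Elane, Mpo, Retnlg and Mmp9, differences between them describe the groups and support nothing further.

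The label's other 4 markers set the precursors apart only in part. Cebpe was at 673 CPM in the precursors, 209 in Mpo-high Elane cells, 680 in low-Elane Fcnb cells and 611 in late cells, against 12.8 in erythroid reference cells. Hsd11b1, which regenerates active glucocorticoid, was at 319 CPM in the precursors, 97.9 in Mpo-high Elane cells, 297 in low-Elane cells and 257 in late cells. Neither gene therefore told the precursors from the low-Elane cells by 1.5-fold. Cd63, a tetraspanin of azurophil granule membranes, was at 839 CPM in the precursors, 460 in Mpo-high Elane cells, 577 in low-Elane cells and 426 in late cells. It was highest, at 1050 CPM, in the Mpo-high cells that also had Fcnb.

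Gpx3, a secreted glutathione peroxidase, was at 112 CPM in the precursors (107 to 116), against 50.8 in Mpo-high Elane cells, 52.7 in low-Elane cells, 35.8 in late cells and 1.90 in erythroid reference cells. Among 1321 genes with at least 100 CPM in any of the 3 groups, Gpx3 was the only one at least 1.5-fold higher in the precursors than in both Mpo-high and low-Elane cells, and 0 were lower than in both. That lead was lost when the Mpo-high cells were limited to those with Fcnb, in which Gpx3 stood at 117 CPM. After each cell was thinned to 8800 counts, 49.7% of precursors had a Gpx3 count, 53.3% of Mpo-high cells with Fcnb, 24.8% of low-Elane cells and 1.35% of erythroid reference cells; without thinning the precursors' share was 69.6%.

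**Figure D1:**
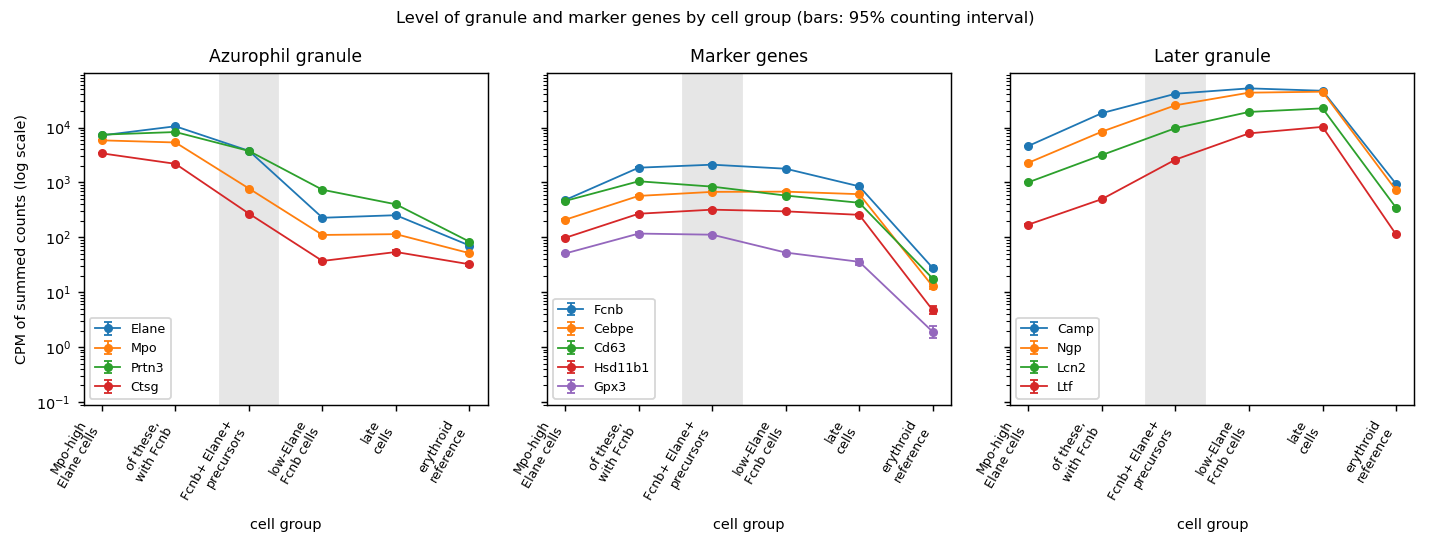
CPM of summed counts (log scale) of azurophil granule, marker and later granule genes in 6 groups of cells; the second group is part of the first, and bars are 95% counting intervals, often smaller than the points. The azurophil genes are lower in the shaded precursors than in either Mpo-high group, and lower again in the low-Elane cells. The later granule genes step up from the Mpo-high to the low-Elane cells, and Cebpe and Hsd11b1 stay level from the precursors to the late cells.

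The precursors' most abundant transcripts were those of alarmins and later granule proteins. In this 3′ library, whose counts are not scaled by transcript length, S100a9 took 9.69% of the precursors' counts, S100a8 6.53%, Camp 4.13% and Ngp (neutrophilic granule protein) 2.55%. Lcn2 was at 9755 CPM, Lyz2 (lysozyme) at 7935 CPM, Chil3 at 5892 CPM and Pglyrp1 (a peptidoglycan recognition protein) at 4830 CPM. Elane, at 3762 CPM, and Prtn3, at 3747 CPM, ranked 15 and 16. The other genes among the highest 20 were CT010467.1, Tmsb4x, Actb, Hmgn2, Arhgdib, Ppia, Gpx1, Ly6c2, H2az1 and Anxa1 (annexin A1).

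On the CPM scale the precursors lay between their neighbours for most genes, however small the difference. Of the 1321 genes, 1046 (79.2%) had a level between those of Mpo-high and low-Elane cells, and so did 1016 of 1166 (87.1%) when only Mpo-high cells with Fcnb were used. The groups were cut by Elane and Mpo. The median log2 ratio of all compared genes was -0.33 against Mpo-high and 0.15 against low-Elane cells. With median-of-ratios size factors these medians were -0.06 and -0.01, and the shares between were not recounted with them. Against those Mpo-high cells with Fcnb, 0 genes were at least 1.5-fold above both neighbours and 0 below both. A gene counts as higher or lower below when it differed by 1.5-fold or more on the log2 scale with 10 CPM added, among genes with at least 10 CPM in either group. Printed folds have nothing added.

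Azurophil genes were lower in the precursors than in the Mpo-high cells and far higher than in low-Elane or late cells. The azurophil list also holds the progenitor marker Ms4a3 and the chaperone Calr, which is counted again among the genes of the endoplasmic reticulum below. Elane and Mpo, which the rule used, are left out of the counts of the listed genes. Of the 10 others, 8 were lower and 2 higher (Cd63 and Serpinb1a, an inhibitor of these proteases) than in Mpo-high Elane cells, where 29.9% of 7942 genes were lower and 5.85% higher. The median log2 ratio of the 10 was -0.93, beside -0.33 over all genes. Ctsg differed most, at 270 CPM against 3388 CPM, 12.5-fold lower. Mpo, which the rule capped, was at 775 against 5844 CPM. Prtn3, which the rule did not use, was at 3747 against 7420 CPM. Per count of Prtn3 the precursors held 0.0721 counts of Ctsg (0.0702 to 0.0742), Mpo-high Elane cells 0.457 and low-Elane cells 0.0504. Against the Mpo-high cells with Fcnb, 7 of the 10 were lower, with 6.74% of 7399 genes lower and 0.933% higher.

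Against low-Elane cells, 8 of these 10 azurophil genes were higher, where 2.56% of 6589 genes were higher and 0.607% lower. Srgn, the proteoglycan serglycin that packs granule proteins, was at 895 against 106 CPM, an 8.46-fold difference. Prtn3 was 5.09-fold and Ctsg 7.29-fold higher. Nkg7, a granule membrane protein, was 3.55-fold higher, Cst7 (cystatin F, a protease inhibitor) 5.25-fold and Prss57 (neutrophil serine protease 4) 2.83-fold. Against late cells all 10 were higher, where 20.3% of 6724 genes were higher and 3.41% lower; Prtn3 was 9.38-fold higher and Ms4a3, a marker of the granulocyte-monocyte progenitor, 4.81-fold.

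Later granule genes ran the other way. The later granule list also holds genes whose products are not granule proteins, among them the receptors Cxcr2 and Ltb4r1 and the alarmins S100a8 and S100a9. Retnlg and Mmp9, which the rule used, are left out of the counts. All 19 of the other listed genes that could be compared were higher in the precursors than in Mpo-high Elane cells, where 5.85% of all genes were. Their median log2 ratio was 2.30, beside -0.33 over all genes. Ltf was at 2608 against 171 CPM (15.3-fold), Ngp at 25474 against 2285 CPM (11.2-fold), Lcn2 at 9755 against 1008 CPM (9.67-fold) and Camp at 41307 against 4631 CPM (8.92-fold). Of the same 19 genes, 13 were still higher against the Mpo-high cells with Fcnb, where 0.933% of all genes were. Ltf was 5.24-fold higher in the precursors, and Camp was at 18334 CPM in those Mpo-high cells with Fcnb. Against low-Elane cells 5 of 19 were lower (Cd177, Lcn2, Ltf, Lyz2 and Ngp) and 0 higher. Over all genes 0.607% were lower and 2.56% higher there. Ltf was 3.003-fold lower and Lcn2 1.97-fold. Camp, at 41307 against 51753 CPM, did not reach 1.5-fold.

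Against late cells 14 of 20 genes of the later granule list were lower, where 3.41% of all genes were. Mmp8, the neutrophil collagenase, was at 1.25 CPM in the precursors against 198 CPM, and Cxcr2, the receptor that draws neutrophils out of the marrow, at 51.4 against 150 CPM. Other genes that were lower in the precursors than in low-Elane and late cells alike were Plbd1 (15.2 against 113 and 330 CPM), St3gal5, a ganglioside synthase (15.99 against 118 and 280 CPM), S100a6 (131 against 339 and 1661 CPM) and Ly6g, the surface marker of mature mouse neutrophils (112 against 245 and 470 CPM). Fpr2, a formyl peptide receptor, was at 22.1 CPM against 95.7 and 386 CPM.

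Genes of the endoplasmic reticulum that fold secreted proteins were low in the precursors relative to the Mpo-high cells. Of 15 compared, 12 were lower and 0 higher, where 29.9% of all genes were lower and 5.85% higher. The 15 had a median log2 ratio of -1.62, beside -0.33 over all genes. Against the Mpo-high cells with Fcnb 12 of 15 were also lower, where 6.74% of all genes were. Hspa5, the main chaperone there, was at 115 CPM in the precursors, 624 in Mpo-high Elane cells, 428 in those with Fcnb and 89.1 in low-Elane cells. The lectin chaperone Calr was at 168 CPM, against 717 in Mpo-high cells with Fcnb and 64.7 in low-Elane cells.

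Among 19 transcription factors compared with Mpo-high Elane cells, 7 were higher and 7 lower, beside 5.85% higher and 29.9% lower over all genes; the share lower was thus near that of all genes. Higher were Cebpe (3.22-fold), Cebpd, Lmo4, Id1, Id2, Ets1 and E2f2; Id2, an inhibitor of basic helix-loop-helix factors, was at 221 against 67.2 CPM. Lower were Cebpa, the C/EBP factor of the early progenitor (20.5 against 85.5 CPM), Irf8, a monocyte and dendritic cell factor (28.4 against 255 CPM), Klf4, Myb, Myc, Runx3 and Zeb2. Myc was at 1.74 against 39.7 CPM. Gfi1, a repressor needed for neutrophil fate, was at 25.5 CPM in the precursors, 41.6 in Mpo-high Elane cells, 69.9 in those with Fcnb and 17.7 in low-Elane cells. Against low-Elane cells 1 of 16 factors differed: Cebpa, at 20.5 against 7.73 CPM. With 2.56% of all genes higher and 0.607% lower there, 1 of 16 is not a result about these factors.

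Of 21 surface genes compared with Mpo-high Elane cells, 7 were higher, among them the integrin chains Itgam (285 against 73.6 CPM) and Itgb2 (230 against 74.0 CPM), and 7 were lower, again a share near the 29.9% of all genes. Among the lower ones were the progenitor markers Cd34 (4.73 against 59.9 CPM), Cd93 (10.9 against 68.6 CPM) and Kit (6.82 against 25.2 CPM). The G-CSF receptor gene Csf3r was at 80.6 CPM in the precursors, 62.1 in Mpo-high Elane cells, 60.5 in low-Elane cells and 76.2 in late cells. Kit differed between the hashtags when precursors were split by Elane per 10000. In A963 it was at 15.0, 20.5 and 13.3 CPM at Elane of 10 to under 20, 20 to under 50 and 50 or more. In A965 it was at 1.89, 3.08 and 3.87 CPM, low for a library labelled as cKit+ cells. Of 21 surface genes compared between the hashtags, Kit and Cd93 were lower in A965 and 0 higher, where 1.29% of all genes were lower. Erythroid reference cells, which come from Kit-expressing progenitors and were mostly A963 (583 of 743 cells), had 17.5 CPM.

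Cell cycle genes were high in the precursors relative to late cells. All 14 S phase genes compared were higher, with a median log2 ratio of 1.201 beside 0.29 over all genes. Of 16 G2/M genes 8 were higher, where 20.3% of all genes were. Mki67, the proliferation marker, was at 370 CPM in the precursors, 235 in Mpo-high Elane cells, 430 in those with Fcnb, 337 in low-Elane cells and 194 in late cells. After thinning, 81.3% of precursors and 48.8% of late cells had a Mki67 count. Erythroid reference cells, which divide, had 84.3%, so for this gene they are no measure of free RNA. Against low-Elane cells 1 of 14 S phase genes (Mcm4) and 0 of 16 G2/M genes differed. With 2.56% of all genes higher and 0.607% lower there, these counts are not a result about cell cycle genes.

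The split of called genes depended on how the totals were scaled. The 22 genes of the later granule list alone summed to 267750 CPM in the precursors. Of this, S100a9 was 96865 CPM and S100a8 65346 CPM. The list summed to 39829 CPM in Mpo-high Elane cells, 378270 in low-Elane cells and 419835 in late cells. Of the genes called against Mpo-high Elane cells 16.4% were higher; with median-of-ratios size factors 46.1% were, and the median log2 ratio of all genes moved from -0.33 to -0.06. Against low-Elane cells the share higher was 80.9%, and 42.8% with those factors, the median moving from 0.15 to -0.01. Against late cells it was 85.7% and 42.2%, with the median moving from 0.29 to 0.05. None of the 20 genes named by rule in each of these comparisons changed sign.

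Within the precursors, cells with more Elane had more of the other azurophil transcripts and less of Ltf, Lcn2 and Ngp. Over 906 genes of at least 100 CPM, the Spearman correlation with Elane across cells, averaged over A963 (246 cells) and A965 (415 cells), was highest for Prtn3 (0.70), Srgn (0.68), Mpo (0.66) and Ctsg (0.55), then Nkg7, Ms4a3, Plac8, Gstm1, Cst7 and Calr. It was lowest for Ltf (-0.64), Lcn2 (-0.61) and Ngp (-0.57), then S100a8, Ifitm6, S100a9, Lyz2, Cd177, Wfdc21 and Chil3. The median over all 906 genes was 0.06, with 19 genes above 0.3 and 10 below -0.3. All these values share the cell's total as divisor and come from 1 library, and the rule cut Elane below 10 and Mpo above 20, so they are given as descriptions. Between genes the rule did not use, Prtn3 and Ltf had a correlation of -0.61 in A963 and -0.62 in A965, and -0.59 and -0.58 after thinning.

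The change with Elane was steep for Ltf and shallow for Camp. Cells were put into 3 ranges of Elane: 10 to under 20, 20 to under 50, and 50 or more per 10000. In A963 the median Ltf per 10000 was 30.6, 14.9 and 3.03 over these ranges (78, 103 and 65 cells), and in A965 it was 44.6, 25.9 and 6.19 (131, 191 and 93 cells). Camp was at 56158, 54104 and 45271 CPM in A963 and at 40835, 37262 and 31700 CPM in A965. Prtn3 ran the other way, at 1436, 2493 and 4134 CPM in A963 and 2832, 4095 and 6036 CPM in A965. Camp and Ltf, both specific granule genes, had a correlation with each other of 0.30 in A963 and 0.29 in A965, where Lcn2 and Ltf had 0.75 and 0.68.

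Cebpe did not follow the granule genes. It was at 659, 632 and 639 CPM over the Elane ranges in A963 and at 692, 672 and 686 CPM in A965, and its correlation with Ltf was -0.00 and -0.05. Fcnb moved little, from 2455 to 2822 CPM in A963 and from 1833 to 1959 CPM in A965. Mki67 was at 341, 370 and 340 CPM in A963 and at 388, 407 and 319 CPM in A965. Gfi1 was at 20.9, 18.7 and 43.7 CPM in A963 and at 22.2, 26.0 and 27.7 CPM in A965, so the higher level in the top range was seen under A963.

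**Figure D2:**
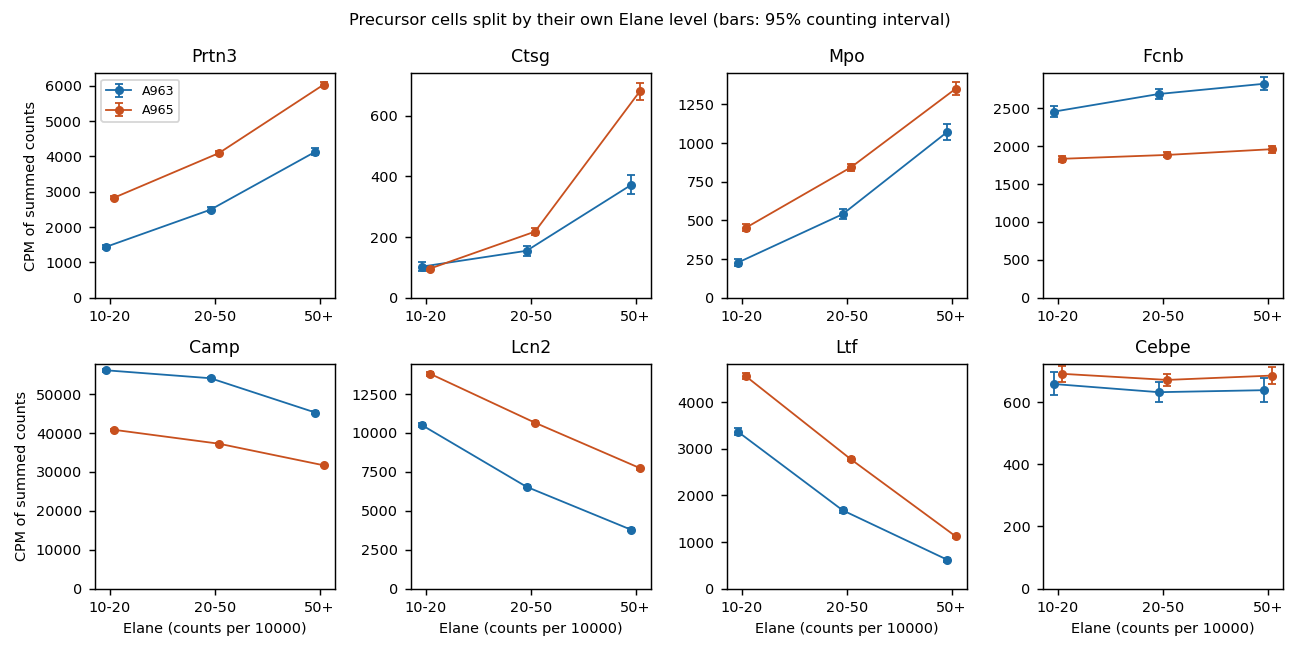
CPM of summed counts (linear scale from 0) of 8 genes in precursors split by their own Elane level, for A963 (78, 103 and 65 cells) and A965 (131, 191 and 93 cells); bars are 95% counting intervals. From left to right, Prtn3 and Mpo are higher in each range under both hashtags, Ltf and Lcn2 are lower, Camp is lower by less, and Cebpe stays near 660 CPM.

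The precursors made up 5.22% of A963 cells (246 of 4716, 4.599 to 5.89) and 7.45% of A965 cells (415 of 5567, 6.78 to 8.18), a ratio of 1.43 (1.22 to 1.68). Among the cells of the precursors and the 3 neighbouring groups together, the shares were 13.95% and 16.7%, a ratio of 1.196 (1.02 to 1.41). The order of the hashtags turned with the thresholds: with Fcnb and Elane both at 20 or more per 10000 the shares were 2.84% and 1.98%, a ratio of 0.695. Fcnb itself differed between the hashtags, with a median of 26.2 per 10000 in A963 precursors and 17.6 in A965 precursors. Between 10 and 12 Fcnb per 10000, just inside the rule, there were 7 cells of A963 and 38 of A965, and between 8 and 10, just outside, there were 10 and 30. At the Mpo limit, 11 A963 and 44 A965 cells lay at 16 to under 20, and 10 and 45 at 20 to 24.

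Precursors under A965 differed from those under A963 in a small set of genes, Ifitm6 and Ifitm3 among them. Of 6919 genes, 92 (1.33%) were higher in A965 and 89 (1.29%) lower. With median-of-ratios factors the share of higher genes among those called moved from 50.8% to 71.0%. All 4 Ifitm genes compared, which encode interferon-induced membrane proteins that restrict viral entry, were higher in A965. Ifitm6 was at 2230 against 494 CPM, a 4.51-fold difference (4.34 to 4.69). The lower quartile of A965 cells, 9.46 per 10000, lay above the upper quartile of A963 cells, 6.004. Ifitm3 was at 1100 against 282 CPM (3.90-fold), Ifitm2 at 849 against 384 CPM (2.21-fold), and Ifitm1 had a median of 0 in both.

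The Ifitm6 difference was present at each Elane level, at 3.29-fold in the lowest range, 5.48-fold in the middle one and 8.69-fold in the highest. It was 3.32-fold in Mpo-high cells with Fcnb, 2.33-fold in low-Elane cells and 1.58-fold in late cells. Erythroid reference cells had 164 CPM under A965 and 76.4 CPM under A963, a 2.14-fold difference. The A965 value in these cells was above that of A963 precursors in the highest Elane range, at 147 CPM, and below that of A965 precursors in each range. Of 18 listed interferon-stimulated genes outside the family, 6 could be compared, and 0 were higher and 0 lower, with a median log2 ratio of -0.10. With 1.33% of all genes higher and 1.29% lower, 0 of 6 is not a result about these genes.

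Other genes higher in A965 precursors were AA467197 (136 against 43.9 CPM), Nme2 (283 against 119 CPM), Mif, Zmpste24, Pirb, an inhibitory immunoglobulin-like receptor (106 against 49.996 CPM), and Anxa1, an anti-inflammatory granule protein (3289 against 1744 CPM). Of 9 genes of nuclear factor kappa B and acute inflammation, 2 were higher and 0 lower, where 1.33% of all genes were higher. The median log2 ratio of the 9 was 0.01. The 2 were Lrg1, an acute phase glycoprotein (568 against 279 CPM), and Saa3, a serum amyloid. Saa3 was at 81.5 against 8.71 CPM, a 9.36-fold difference (7.05 to 12.7), and its log2 ratio of 2.29 was above the 2.15 of Ifitm6. Lower in A965 were Xist, which follows donor sex, and the non-coding RNA Gas5 (95.4 against 159 CPM), Rgcc (154 against 249 CPM), Grcc10, Rab44 (66.6 against 108 CPM), Cnbp and Rpia. Other than Xist, these differed by 1.67-fold or less, and Rsrp1, Spn and Adssl1, next in order, did not pass 1.5-fold on the log2 scale with 10 CPM added.

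**Figure D3:**
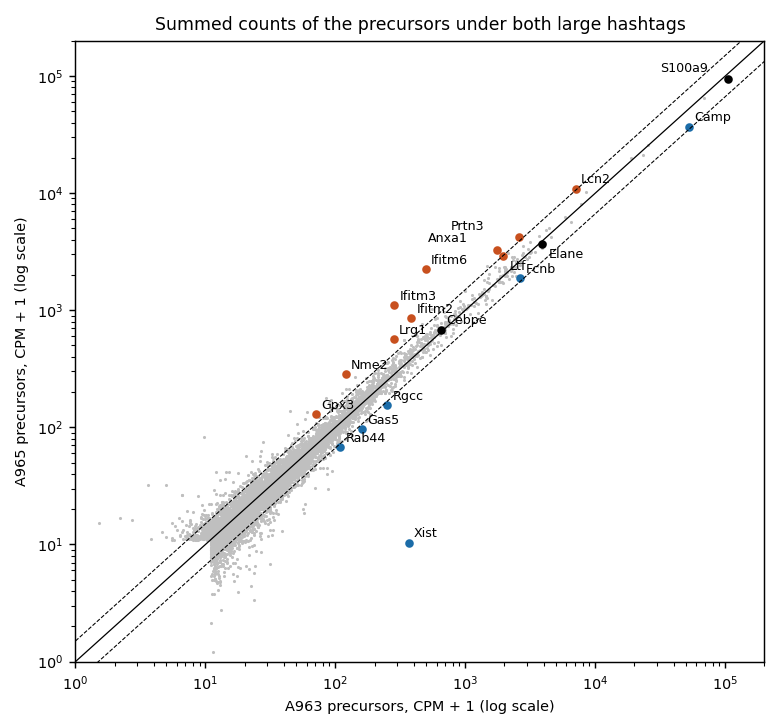
Summed counts of A965 precursors against A963 precursors as CPM + 1 on log axes, 1 point per gene with at least 10 CPM in either; the solid line marks equal levels and the dashed lines 1.5-fold. Orange names lie higher in A965, blue names higher in A963, and black names near the line; Ifitm6 and Ifitm3 lie farthest above the line among the named genes.

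Granule genes differed between the hashtags in both directions within the same cells. Camp was lower in A965, at 37008 against 52341 CPM (0.707-fold, 0.704 to 0.710), and Fcnb at 1886 against 2649 CPM. Lcn2 was higher, at 10906 against 7067 CPM (1.54-fold), Prtn3 at 4179 against 2601 CPM (1.61-fold), Srgn at 1020 against 557 CPM (1.83-fold), and Gpx3 at 129 against 70.0 CPM (1.84-fold). Neither Camp nor Fcnb passed 1.5-fold. Without the genes the rule used, 2 of 10 azurophil genes were higher (Prtn3 and Srgn) and 0 lower. Of 19 later granule genes 3 were higher (Anxa1, Lcn2 and Ltf) and 0 lower. Over all genes 1.33% were higher and 1.29% lower. Elane, at 3674 against 3875 CPM, and Ngp, at 25689 against 25317 CPM, were close. Single cells overlapped for each of these genes: the quartiles of A963 cells were 419 and 670 Camp per 10000 and those of A965 cells 288 and 466.

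For Prtn3, Camp and Lcn2 the order of the hashtags was the same at each Elane level. The A965 over A963 ratio of Prtn3 was 1.97 in the lowest Elane range, 1.64 in the middle and 1.46 in the highest, that of Camp 0.727, 0.689 and 0.700, and that of Lcn2 1.31, 1.63 and 2.05. Gpx3 had 1.95 and 2.39 in the lower ranges and 1.16 (0.952 to 1.42) in the highest. Outside the precursors they were not all the same. In the Mpo-high cells with Fcnb, Camp had a ratio of 1.001 and Prtn3 of 1.02, whereas Lcn2 had 2.91 and Ltf 3.87. In low-Elane cells Camp had 0.725, Prtn3 2.98 and Lcn2 1.07. In erythroid reference cells Camp was at 1019 CPM under A965 and 897 CPM under A963, opposite in order to the precursors.

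**Figure D4:**
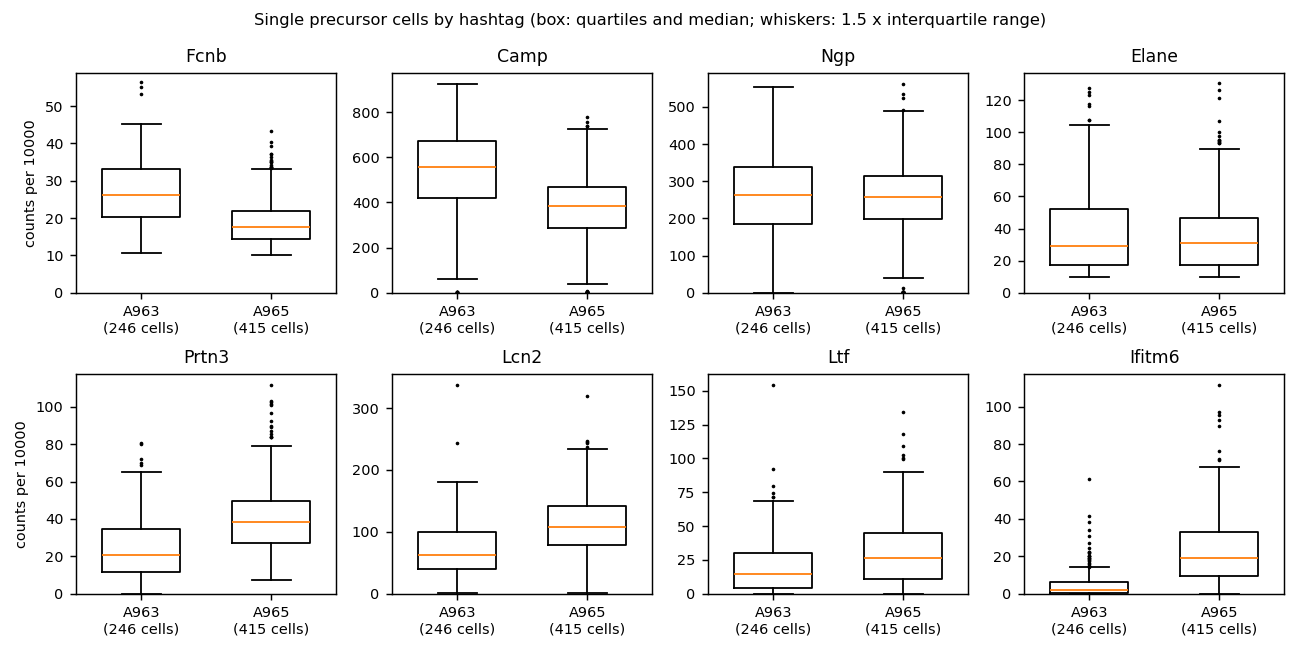
Counts per 10000 of 8 genes in single precursors of A963 (246 cells) and A965 (415 cells); boxes give quartiles and median, whiskers reach the last cell within 1.5 times the interquartile range, and points are cells beyond. Camp and Fcnb sit lower under A965, Prtn3, Lcn2, Ltf and Ifitm6 sit higher, and Elane and Ngp are at similar levels.

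Some other-type markers moved with the hashtag, in both directions. The basophil genes Prss34, at 31.4 against 2.61 CPM and in 8.19% and 4.88% of cells, and Mcpt8, at 10.2 against 2.79 CPM, were higher in A965. The monocyte genes Ms4a6c (29.1 against 68.3 CPM), F13a1 (15.4 against 29.6 CPM) and Ctss (18.5 against 33.97 CPM) and the lymphoid gene Dntt (9.95 against 20.9 CPM) were lower in A965. Cd74, a chaperone of major histocompatibility complex class II, was at 30.3 CPM in A963 precursors and 5.75 in A965, and H2-Aa, H2-Ab1 and H2-Eb1 went the same way. A single A963 cell held 79.9% of that hashtag's Cd74 counts, and without the cells that Scrublet called doublets (13 of 246 in A963, 6 of 415 in A965) Cd74 stood at 5.54 and 5.71 CPM. Scrublet calls came to 2.84% of the precursors and 2.12% of all cells. Of 19 transcription factors compared, Cebpa, Irf8 (22.6 against 40.4 CPM) and Zeb2 were lower in A965 precursors and 0 were higher. Over all genes 1.29% were lower. Cebpa stood at 13.95 against 30.4 CPM without the cells of little Camp described next. Without the same cells Irf8 was at 11.9 against 28.5 CPM, Ms4a6c at 11.6 against 34.7 CPM and F13a1 at 7.23 against 16.1 CPM. Ctss was then at 12.1 against 21.7 CPM and no longer differed by 1.5-fold with 10 CPM added.

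Of the 668 cells, 18 (2.69%, 1.605 to 4.23) met the rule but went against the neutrophil label. They had under 20 Camp per 10000, with 7.96 as their highest, where the next cell had 40.1 and the other 650 had a median of 434; the limit was set after this gap was seen. Their median of 2.56 was near the 2.38 of erythroid reference cells. Ngp was at 171 CPM against 26218 in the other 650, Ltf at 38.4 against 2683 CPM, Cebpe at 97.7 against 690 CPM and Cd63 at 29.6 against 863 CPM. Elane, at 4337 against 3745 CPM, and Prtn3, at 4234 against 3732 CPM, were alike, and Ctsg was 2.68-fold higher.

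These 18 cells carried genes of the monocyte lineage. Irf8 was at 433 CPM against 16.6, F13a1 (coagulation factor XIII) at 364 against 9.84, Ms4a6c at 811 against 18.3, Ccr2, the chemokine receptor of monocytes, at 267 against 7.38, Klf4 at 131 against 3.23 and Csf1r, the receptor for macrophage colony-stimulating factor, at 88.9 against 5.07. Counts of Irf8, F13a1, Ms4a6c and Ccr2 were each found in 17 of the 18 cells. Fn1 was at 1.74 CPM in them. Of the 18, 6 were A963, 11 A965 and 1 A962, and Scrublet called 1 of them. Their part in the number of genes called in A965 over A963 was small: without them 90 genes were higher and 94 lower, and Ifitm6 differed 4.58-fold. For Irf8, Ms4a6c, F13a1 and Ctss their part was larger, as the levels above without them show.

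**Figure D5:**
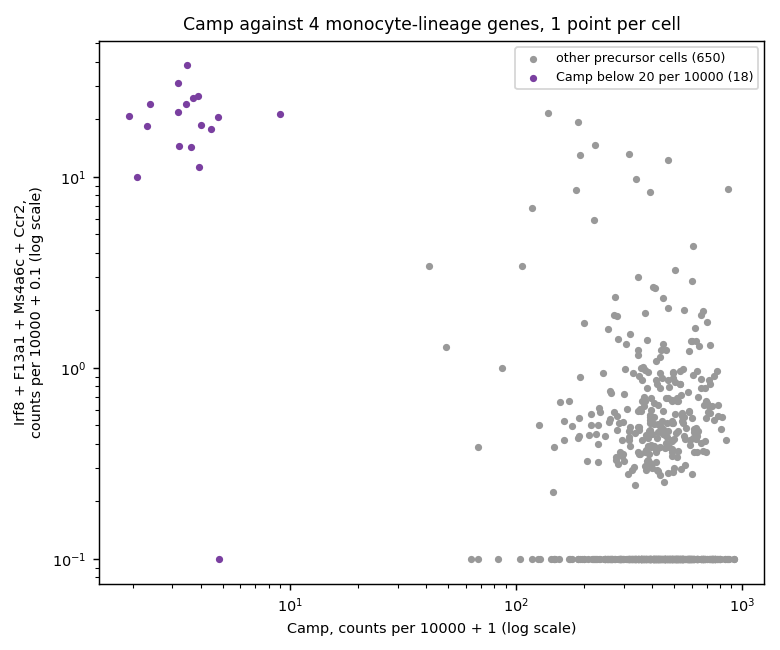
Camp per 10000 + 1 (log axis) against the summed Irf8, F13a1, Ms4a6c and Ccr2 per 10000 + 0.1 (log axis), 1 point per precursor. The 18 cells of little Camp stand apart at the left, 17 of them with these monocyte genes, and the other 650 lie at 40.1 Camp per 10000 or more, where few reach the same level.

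The small hashtags gave 7 precursors: 3 of 68 A961 cells, 1 of 104 A962 cells and 3 of 73 A964 cells. The A961 cells had 607, 376 and 495 Camp per 10000, and the A964 cells 515, 506 and 125. The A962 cell had 3.03 Camp and 1.01 Ltf per 10000 and is among the 18. Of the 3 A961 cells, 1 had 15 counts of Xist and none of the Y-linked genes, and 1 had 7 counts of the Y-linked genes and none of Xist. Such numbers allow no comparison with A963 or A965.

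Summed markers of most other types were lower in the precursors than over all cells. Erythroid markers summed to 229 CPM, against 5429 CPM over all cells, with none at 0, led by haemoglobin genes. Lymphoid markers summed to 28.4 against 116 CPM, stem cell markers to 35.0 against 130 CPM with Procr at 0, and eosinophil markers to 56.4 against 169 CPM. Dendritic markers summed to 72.1 against 730 CPM, and basophil and mast cell markers to 89.4 against 242 CPM. Megakaryocyte markers, at 218 against 255 CPM, were led by Rap1b, with Ppbp at 0. Macrophage markers were the exception, at 58.2 CPM in the precursors against 51.1 CPM over all cells. Monocyte markers summed to 3686 against 4451 CPM, of which Ly6c2, which neutrophil precursors also express, was 3538 CPM in the precursors. The part of these transcripts in the results above was not tested.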

How the data were processed

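Per the labels' protocols, the cells were captured with BD Rhapsody and their cDNA amplified by TAS-Seq. The deposited values are whole-number counts per gene and cell; whether they count molecules or reads, and the aligner and annotation, is not given in the sources used here. Per the submitters' processing notes, the build was GRCm38, and R 4.2.1 and Seurat 4.2.0 were used. The table held 10731 cells and 25661 genes; 190 cells named doublets and 6 with no detected hashtag were not used, and 7 failed the filter (at least 500 genes, at most 20% mitochondrial counts). Cell totals ran from 8822 to 140994.

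Counts of all cells in a group were added up and given as CPM of that sum. Ratio and CPM intervals are exact Poisson, and shares have exact Clopper-Pearson intervals (scipy 1.17.1, 95%). For shares of cells with a count, cells were thinned to 8800 counts, leaving out none. Scrublet (scanpy 1.11.5) called 223 cells, which stayed in. Symbols in GENCODE M21 numbered 24749 (96.4%). Of 13 promoters looked up, 12 were found, and Cebpe was not.

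The members and the 19 gene lists were chosen with earlier results of these data known. Named are the label markers, the 20 genes of highest CPM, the 10 largest log2 ratios each way per comparison (at least 100 CPM, counts in 25% of cells of the higher group) and the 10 highest and lowest correlations with Elane, without mt-, Rps, Rpl, Gm-number and Rik names, and examples from the lists. Which to print was chosen after their values were seen, as were Plbd1, St3gal5, S100a6 and Ly6g as a set and the monocyte genes of the 18 cells. Ratio steps were tested on simulated data.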

Additional observations from a re-analysis of the deposited data

How the results depend on the processing

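With Fcnb and Elane at 5 or more the share was 7.76% in A963 and 11.5% in A965; at 20 or more it was 2.84% and 1.98%, and the ratio of A965 over A963 turned from 1.43 to 0.695. With Mpo under 40 the shares were 6.11% and 9.81%, and with Mpo under 10 they were 4.07% and 4.87%, with a ratio of 1.196. For A965 over A963, genes higher and lower numbered 234 and 368 with 1 CPM added in place of 10, 178 and 157 after thinning, and 186 and 243 with Fcnb and Elane at 20 or more. With median-of-ratios scaling 147 were higher. Against Mpo-high Elane cells, 465 genes were higher and 2372 lower, and 960 and 1123 with median-of-ratios scaling; with the Mpo-high cells limited to those with Fcnb, a comparison added after seeing the data, 69 and 499 were. Against low-Elane cells, 169 and 40 became 59 and 79 with median-of-ratios scaling and 515 and 66 with 1 CPM added, and 416 were higher in A963 cells alone. Against late cells, 1367 and 229 became 359 and 492 with median-of-ratios scaling, 2386 were higher with 1 CPM added, and 412 were lower in A963 cells alone. Adding 1 CPM lets more low genes pass the fold; the causes of the other shifts were not tested. The remaining 65 summary values moved less than 1.5 times or within their interval. No gene named by rule changed sign among those checked. Rsrp1, Spn and Adssl1, which did not reach 1.5-fold in A965 over A963, were not checked for this. Of 180 values for the genes named in A965 over A963, 22 crossed 1.5-fold. No paired analysis was possible because there was 1 library and no replicate number. Leaving out a replicate was not possible either. The smallest groups limit what can be seen: 3 or fewer precursors per small hashtag, and genes under 10 CPM were not compared.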
